A study of Mus musculus with 9 samples.

Results

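The proteins described here are a group of 9 genes whose products airway and alveolar cells release onto the lung surface in defence against microbes. They are the lysozymes Lyz1 and Lyz2, the siderophore binder Lcn2, the immunoglobulin transporter Pigr, the chemokine Cxcl15, the lectin Reg3g, the antiproteases Slpi and Wfdc2 and the resistin-like protein Retnla. The members were chosen by gene symbol: every probe set whose only symbol in the platform's annotation was one of the 9 was taken, which gave 12 probe sets of the 22690 on the array, and 9 genes of 12393. The 9 arrays measured lung total RNA of adult FVB/N mice, labelled with biotin, on Affymetrix mouse expression arrays. Wild-type mice (WT) had no transgene, the group HE had 1 allele and the group HO had 2 alleles of SP-C-hCFTR, a normal human CFTR cDNA behind the surfactant protein C promoter, which directs it to respiratory epithelial cells. The study asks what more of this chloride channel does to lung RNA. The genotype labels give every array in the 3 groups both copies of the mouse's own Cftr, except WT replicate 3, which has no genotype label beyond its title and description. For HO replicate 2 the labels conflict: the title and genotype say 2 transgenic alleles and the description writes 1, and it was kept in HO. The labels give no founder line and do not say that replicates came from separate animals, and p-values therefore describe only the spread among these samples, some of which may be technical.

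Lung lining fluid carries several layers of such proteins. Lysozymes cut the peptidoglycan of bacterial walls, Lcn2 withholds iron by binding bacterial siderophores, and Reg3g is a C-type lectin that kills gram-positive bacteria and is induced through IL-22 and IL-17 receptors. Pigr carries dimeric IgA and pentameric IgM through epithelial cells and is shed with them as secretory component. Slpi inhibits neutrophil elastase and protects tissue during inflammation, Wfdc2 shares its whey acidic protein fold, Cxcl15 (lungkine) is a neutrophil chemokine made by lung epithelium, and Retnla is made by airway epithelium and macrophages in type 2 immune responses.

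The proximal upstream sequences of the lysozyme pair are shown because the genes are near copies and their signals are described together. The windows are the 150 bases before the annotated start in RefSeq (build GRCm38.p6), for Lyz1 chr10:117292869-117293018 and for Lyz2 chr10:117282273-117282422, both on the minus strand and written 5′ to 3′ along it, with capitals at positions where they differ.
Lyz1: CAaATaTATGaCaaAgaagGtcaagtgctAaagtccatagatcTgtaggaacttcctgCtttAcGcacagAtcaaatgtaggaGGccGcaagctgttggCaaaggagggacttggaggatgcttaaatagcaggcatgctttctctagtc
Lyz2: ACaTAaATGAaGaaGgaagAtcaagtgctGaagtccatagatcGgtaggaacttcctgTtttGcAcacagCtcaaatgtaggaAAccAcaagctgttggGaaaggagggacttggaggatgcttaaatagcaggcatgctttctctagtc
They were identical at 129 of 150 positions (86%), and at all of the 50 positions nearest the start. Aligned without gaps over 250 bases the identity was 60.8%. No alignment with gaps was made, so inserted or lost bases cannot be told apart from substitutions in this value or in the capitals.

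The upstream sequences of Reg3g and Retnla are shown because these members varied most between arrays and were both highest on the same array. The windows are the 250 bases before the start in the same RefSeq table, chr6:78468875-78469124 on the minus strand for Reg3g and chr16:48842359-48842608 on the plus strand for Retnla. Capitals mark matches to TATAAA in both, to the NF-kB consensus in Reg3g and to TTCNNNNGAA, the spacing preferred by STAT6, in Retnla.
Reg3g: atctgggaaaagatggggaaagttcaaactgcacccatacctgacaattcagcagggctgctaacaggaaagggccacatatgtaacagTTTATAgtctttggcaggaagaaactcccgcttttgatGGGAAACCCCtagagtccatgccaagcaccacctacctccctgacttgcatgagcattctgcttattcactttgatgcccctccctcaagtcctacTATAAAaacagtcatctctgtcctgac
Retnla: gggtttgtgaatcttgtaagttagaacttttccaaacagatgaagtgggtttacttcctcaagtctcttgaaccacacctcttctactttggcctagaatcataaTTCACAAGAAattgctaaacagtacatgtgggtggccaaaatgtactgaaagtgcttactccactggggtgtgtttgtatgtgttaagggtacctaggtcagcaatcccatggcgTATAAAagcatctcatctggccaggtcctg
All 9 members matched an entry in the RefSeq promoter table. Both strands were searched for TATAAA, the NF-kB consensus, TTCNNNGAA and TTCNNNNGAA in the 250 bases before the start, and no matches overlapped. These motifs occurred in 12.4%, 7.25%, 7.02% and 5.85% of 32851 mouse promoter windows, in that order. In Reg3g TATAAA began at -27, with a further match on the other strand at -161, and the NF-kB match began at -123. In Retnla TATAAA began at -30 and TTCNNNNGAA at -145. Among the other members Cxcl15 held TATAAA at -27 and Lcn2 held TTCNNNNGAA at -156, and the remaining windows held none of the 4. A match is a description of the letters and not evidence of a bound factor.

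Signal was alike over the arrays as a whole, with median intensities from 697 to 742 after the authors' scaling. Markers showed lung tissue: the defining markers of type II cells (Sftpc, Sftpb, Sftpa1) and club cells (Scgb1a1, Scgb3a2, Cyp2f2) passed the filter on low signal. The summed signal of 10 type II markers, Cxcl15 among them, ran from 247710.5 to 310819 in WT, 261905 to 288862 in HE and 271935 to 305137 in HO. Mouse Cftr differed from WT by 0.03 ± 0.14 in HO and Sftpc by 0.03 ± 0.15 (log2, SE, limma), and binding of the human transcript by the Cftr probe set was not tested, so neither checks the genotype. In whole lung, fewer cells of a type and less RNA per cell cannot be told apart.

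**Figure D1:**
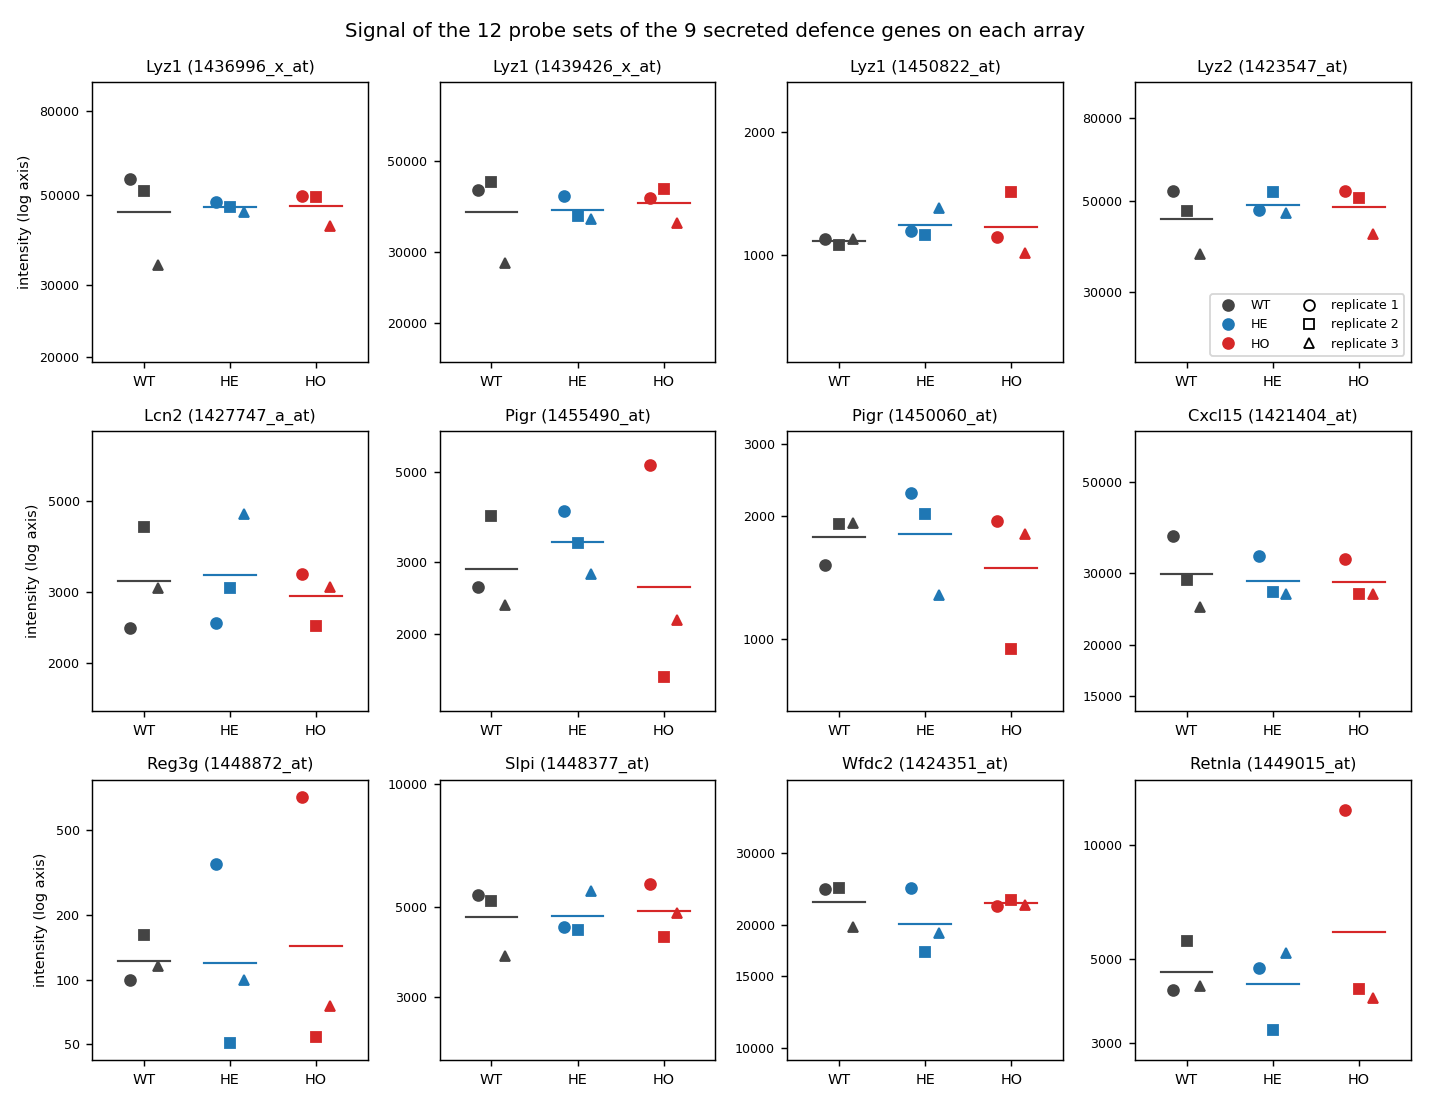
Intensity of each of the 12 probe sets on a log axis (y) in WT, HE and HO (x); each point is 1 array, its shape gives the replicate number, and the horizontal line is the mean of the log2 values of the 3 arrays. The groups overlap in 11 panels; in Lyz1 (1450822_at) the 3 HE arrays lie above the 3 WT arrays, and Reg3g and Retnla each have their highest point in HO replicate 1.

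Lyz2 and the 2 brighter Lyz1 probe sets had strong signal on every array. The remaining Lyz1 probe set (1450822_at) was far dimmer, at 1013 to 1432. Lyz2, the lysozyme of macrophages and type II cells, had intensities of 52841, 47365.5 and 37114 in WT replicates 1, 2 and 3, 47554, 52696 and 46647 in HE, and 53066, 50969 and 41537 in HO. Lyz1 at its brightest probe set (1436996_x_at) had 54486.5, 50968 and 33620.1 in WT, 48031, 46537.5 and 45377 in HE, and 49568, 49416 and 41930.5 in HO. At these probe sets the groups overlapped for both genes, and WT replicate 3 was the lowest of the 9 arrays for both. The differences of HO from WT were 0.09 ± 0.16 (log2, SE, 3 arrays per group) for Lyz2 and 0.05 ± 0.18 for Lyz1, and those of HE from WT were 0.11 ± 0.16 and 0.04 ± 0.18 (limma's lowest adjusted p of any member in these comparisons was 0.992). Left without WT replicate 3, the differences of HO from WT turned to -0.05 for Lyz2 and -0.17 for Lyz1.

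Lyz1 was measured by 3 probe sets that did not behave alike. The second, 1439426_x_at, followed the first: it had 42419.6, 44396 and 28195 in WT, 40972, 36727 and 36032 in HE, and 40571.5, 42629 and 35217 in HO. Its difference of HO from WT was 0.07 ± 0.18, and -0.14 without WT replicate 3. Over the 9 arrays these 2 probe sets correlated at 0.957 with each other, and the first at 0.893 with Lyz2, as a description of arrays that share scaling and hybridisation. The suffix x in their names is the maker's mark for probes that can also match other transcripts, so the signals of Lyz1 and its near copy Lyz2 may be mixed. The third, 1450822_at, had 1097, 1058 and 1096.5 in WT, 1145, 1119 and 1304 in HE, and 1107, 1432 and 1013 in HO. It correlated at 0.172 with the first Lyz1 probe set. It was the only member probe set whose arrays did not overlap between 2 genotypes, higher in HE than in WT by 0.13 ± 0.15 (adjusted p = 1 by limma), where 3.25% of all 13576 probe sets tested were likewise separated upward. Its spread within HO, 1.41-fold, was wider than that difference.

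All arrays of replicate number 3 lay below the other 6 for Lyz2 and for both bright Lyz1 probe sets, as 2.18% of all probe sets tested did. The highest intensity of any probe set was 54127 in WT replicate 3 and 58999 in HO replicate 3, and 63425 to 74461 on the other 7 arrays. The median of the 227 brightest probe sets stood at -0.23 (log2) from its 9-array mean in WT replicate 3, -0.08 in HO replicate 3 and -0.03 in HE replicate 3. On the other arrays it ran from -0.06 (HE replicate 2) to 0.16, so that a dim bright end was plain in WT replicate 3 and not in HE replicate 3. After quantile normalization, which gives all arrays the same distribution, none of the 3 probe sets had this separation, and their p over replicate number went from 0.0876, 0.0769 and 0.0818 (Lyz1, Lyz1 and Lyz2, limma's F) to 0.653, 0.428 and 0.749. With arrays centred on their medians, Lyz2 and 1 of the Lyz1 probe sets (1436996_x_at) kept it. Whether these signals lay near saturation was not tested.

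**Figure D2:**
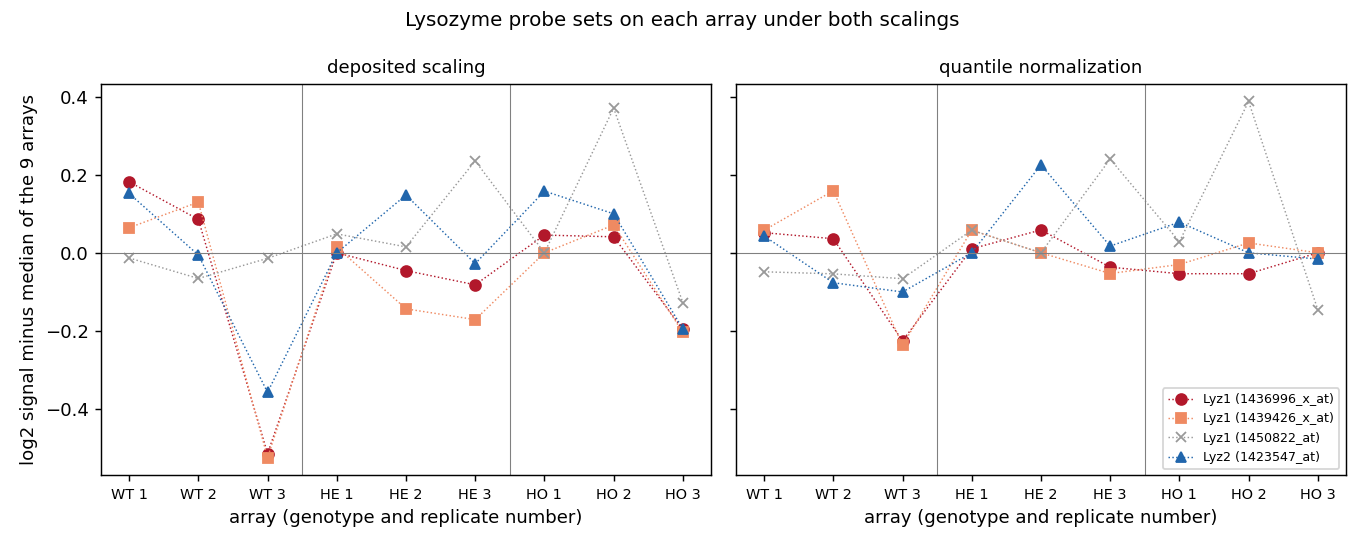
Log2 signal of the 4 lysozyme probe sets minus each one's median over the 9 arrays (y) on each array (x), with the deposited scaling on the left and quantile normalization on the right. On the left WT replicate 3 lies 0.51 to 0.53 below the median for the 2 bright Lyz1 probe sets. On the right it lies nearer 0, and Lyz1 (1450822_at), marked by crosses, follows a course of its own in both.

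Lcn2 was highest on the 2 arrays where the neutrophil genes S100a8, S100a9 and Csf3r were highest. Its intensities were 2443, 4305 and 3062.5 in WT, 2516, 3055 and 4637 in HE, and 3309.6, 2473.5 and 3082 in HO. WT replicate 2 and HE replicate 3 stood above the other 7 arrays, and the genotypes overlapped. Its difference was -0.12 ± 0.25 in HO and 0.05 ± 0.25 in HE against WT (log2, SE, limma, adjusted p = 0.992 and 1). Both values changed sign when 1 array was left out: HO minus WT was 0.10 without WT replicate 2, and HE minus WT was -0.20 without HE replicate 3.

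S100a8, a subunit of the neutrophil protein calprotectin, had 4123, 20928 and 4963 in WT, 5025, 13692.5 and 28647 in HE, and 11531.5, 3546 and 3714 in HO. Its 2 highest arrays were those of Lcn2. Over the 9 arrays log2 Lcn2 correlated with S100a8 at a Pearson r of 0.879 (Spearman's rho 0.70), and at 0.906 when each array was taken as its deviation from the group mean. Without WT replicate 2 and HE replicate 3 the r was 0.610 (7 arrays). With S100a9, the other subunit, it was 0.902, and 0.623 without the same arrays. The summed signal of the 9 neutrophil markers on the array, of which 6 passed the filter and none was at the floor throughout, ran from 11734 to 47571.5 in WT, 12933 to 63092.5 in HE and 9455 to 26756.5 in HO. S100a8, S100a9 and Csf3r led that list. Ltf, also on it and tested, was highest in HO replicate 1 (2427) and stood at 914 in HE replicate 3. The part of neutrophils in the Lcn2 signal was not tested.

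**Figure D3:**
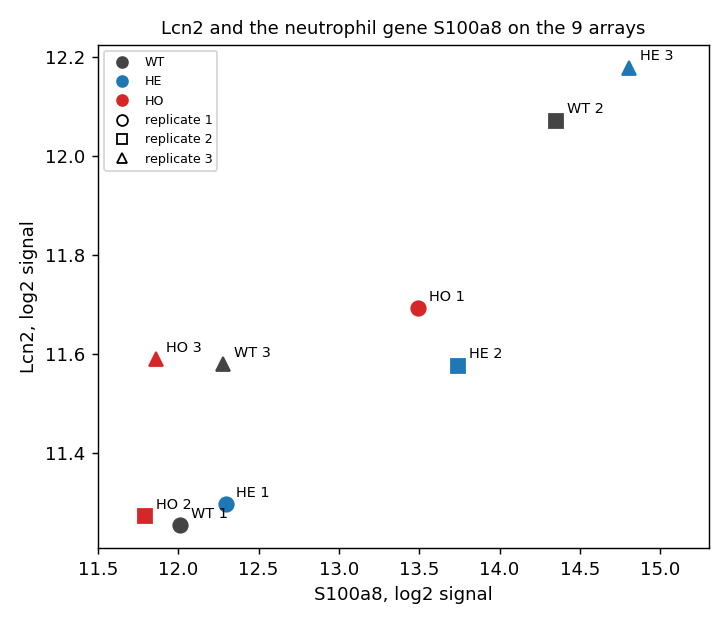
Log2 signal of Lcn2 (y) against log2 signal of S100a8 (x); each point is 1 of the 9 arrays, its colour gives the genotype and its shape the replicate number. WT replicate 2 and HE replicate 3 sit apart at the upper right, and the other 7 arrays form a looser rise (r of 0.610).

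Pigr differed more between HO arrays than between genotypes. At its brighter probe set (1455490_at) the intensities were 2616.5, 3895 and 2356 in WT, 4014, 3352 and 2815 in HE, and 5196, 1570.0 and 2169.8 in HO. HO replicate 1 was the highest and HO replicate 2 the lowest of all 9 arrays, 3.31-fold apart. The other probe set (1450060_at) had 1517, 1914.5 and 1919 in WT, 2275, 2016 and 1278 in HE, and 1944, 942 and 1802 in HO. HO replicate 2 was the lowest here too, while the highest was HE replicate 1, and the probe sets correlated at 0.714 over the arrays.

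The differences of HO from WT were -0.15 ± 0.36 and -0.25 ± 0.28 at these probe sets (log2, SE, limma, adjusted p = 0.992 for both), and those of HE from WT were 0.22 ± 0.36 and 0.02 ± 0.28. The first depended on single arrays. Without HO replicate 1 it was -0.64, with an unadjusted p of 0.0245, and without HO replicate 2, whose labels conflict, it was 0.22. The second was -0.44 without HO replicate 1 and 0.08 without HO replicate 2. None of the alternatives gave an adjusted p under 0.746 for a member in this comparison. Against HE the first probe set stood at -0.37 ± 0.36 in HO. That value was -0.86 without HO replicate 1, with the lowest unadjusted p of any member in this comparison (0.0052, adjusted p = 1 by limma), and near 0 (-0.00038) without HO replicate 2.

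The immunoglobulin chains that Pigr carries were looked at within a list of 8 mucosal immunoglobulin genes, of which 6 were on the array and tested. These include Cd79a and Tnfsf13b, which are not immunoglobulin chains, so the counts are not of what Pigr carries alone. In HO 5 of them stood above WT and 1 below, with a median difference of 0.09 (log2), and 4 were higher and 2 lower in HE with a median of 0.26; none passed limma's adjusted test. Jchain, which joins IgA and IgM into the polymers that Pigr binds, had 5764, 3608 and 4486 in WT, 9276, 6579 and 5192 in HE, and 4843, 4332 and 6342 in HO. It stood 0.59 ± 0.24 above WT in HE and 0.17 ± 0.24 above WT in HO, with unadjusted p = 0.0302 and 0.486 and adjusted p of 1 and 0.992 in limma. Igha, the IgA heavy chain, had 10608, 5742 and 10004 in WT, 22855, 8079.9 and 11728 in HE, and 12826, 7337 and 15458 in HO. For Igha replicate 2 was the lowest array in each group, with an unadjusted p of 0.00156 and an adjusted p of 0.286 in limma's F over replicate number. Ighm, the IgM heavy chain, stood 0.42 above WT in HE and 0.003 above WT in HO at its brightest probe set (log2). At its other tested probe sets these values ran from 0.04 to 0.64 and from 0.08 to 0.20. Over the 9 arrays Pigr (1455490_at) correlated at 0.176 with Jchain and 0.219 with Igha. For the other Pigr probe set (1450060_at) these values were 0.407 and 0.368.

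Cxcl15 was the member of lowest p over replicate number. Its intensities were 37048, 28837 and 24826 in WT, 32961, 26976 and 26621 in HE, and 32515, 26594.5 and 26639 in HO. In every genotype replicate 1 was the highest, and the 3 arrays of replicate number 1 (32515 to 37048) lay above the other 6 (24826 to 28837). The share of all probe sets tested with that separation was 3.13%. The p over replicate number was 0.0202, with an adjusted p of 0.351 (limma's F with genotype in the model), so Cxcl15 did not pass. The separation was also there after quantile normalization, with an unadjusted p of 0.0632, and with median centring. By genotype Cxcl15 did not differ beyond its error: HO minus WT was -0.07 ± 0.17, with a 95% interval from -0.44 to 0.31, and HE minus WT was -0.05 ± 0.17 (log2, SE, limma). HO minus WT was 0.09 without WT replicate 1 and -0.20 without WT replicate 3.

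The antiproteases varied little. Slpi had 5348, 5152.5 and 3779 in WT, 4466, 4369.9 and 5467 in HE, and 5691, 4219.6 and 4829.7 in HO. Its difference of HO from WT was 0.05 ± 0.17 and of HE from WT 0.01 ± 0.17 (log2, SE, limma). WT replicate 3 was again the lowest array, and without it the differences were -0.11 and -0.15.

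Wfdc2 had 24495, 24587 and 19756 in WT, 24696, 17150.1 and 19107 in HE, and 22262, 23060.2 and 22429 in HO. The 3 HO arrays lay within 1.04-fold of each other, between the extremes of the other groups. It stood at -0.02 ± 0.16 in HO and -0.19 ± 0.16 in HE against WT (log2, SE, limma, adjusted p = 0.995 and 1). The value in HE was below 0 in all 20 alternatives run, from -0.33 to -0.07, without passing in any.

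Reg3g had little signal except on 2 arrays. Its intensities were 99.4, 161 and 115 in WT, 345, 50.6 and 99.1 in HE, and 712, 54.1 and 75.4 in HO. HO replicate 1 was the highest array and HE replicate 1 came second. The other 7 arrays, at 50.6 to 161, lay near the dim end of the array, and whether they exceeded background was not tested, so no fold is given. Only HO replicate 1 exceeded the intensity that corresponds to the filter on mean signal, about 477, so Reg3g was the 1 member left out of the main test. Fitted with no filter, over 22626 probe sets, HO minus WT was 0.22 ± 1.06 (log2, SE, 95% interval -2.27 to 2.71, adjusted p = 0.996 by limma) and HE minus WT was -0.03 ± 1.06. The p over replicate number was 0.145 there, with an adjusted p of 0.592.

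Retnla was high on 1 array and ran from 3255 to 5573.5 on the other 8. It had 4142, 5573.5 and 4246.5 in WT, 4720.5, 3255 and 5198 in HE, and 12322.5, 4157 and 3954 in HO. HO replicate 1 was 2.90-fold above the median of the 9 arrays, and the other 2 HO arrays lay within the WT and HE range. The difference of HO from WT was 0.35 ± 0.37 (log2, SE, 95% interval -0.46 to 1.16, adjusted p = 0.992 by limma). Without HO replicate 1 it was -0.19. Against HE the values were 0.45 ± 0.37 with that array and -0.09 without it.

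Reg3g, Retnla and Pigr (1455490_at) were thus all highest on HO replicate 1. Over the 9 arrays Retnla correlated at 0.853 with Reg3g and at 0.640 with Pigr at this probe set, and that probe set at 0.787 with Reg3g. Left without HO replicate 1, over 8 arrays, these values were 0.639, 0.317 and 0.648. HE replicate 1 (345) was then the only Reg3g value above the dim end, so the correlations with Reg3g still rest on few arrays. The other Pigr probe set (1450060_at), highest on HE replicate 1, followed less closely. Over the 9 arrays it correlated at 0.152 with Retnla and at 0.5004 with Reg3g. The likeness of Pigr to Retnla therefore rests on 1455490_at alone. Lcn2, also an inducible defence gene, correlated at 0.0938 with Reg3g. HO replicate 1 was the highest of the 9 arrays for 5 of the 9 members (Lyz2, Pigr, Reg3g, Slpi and Retnla, 1 probe set each). It was also the highest for 12 of 20 tested genes of a list of other secreted airway proteins (60%), and for 11.8% of all probe sets tested. For Lyz2 this was nearly a tie (53066, against 52841 in WT replicate 1), and after quantile normalization HE replicate 2 was the highest. HO replicate 2, the other array with a high 3′ to 5′ ratio for Actb (1.39, against 1.35 in HO replicate 1 and 1.07 to 1.30 on the rest), was the highest for 0 of the 20 and the lowest for 5, against 15.1% and 13.5% of all probe sets tested. The part of RNA quality in these orders was not tested. WT replicate 3 was the lowest array for 4 of the 9 members (Lyz1, Lyz2, Cxcl15 and Slpi) and 8 of the 20 listed genes, against 10.1% of all probe sets. That share covers probe sets of every brightness, while the median of the 227 brightest stood at -0.23 (log2) on this array. It is therefore not a like background for the bright members. After quantile normalization WT replicate 3 was still the lowest for Lyz1, Lyz2 and Slpi, and HO replicate 2 was the lowest for Cxcl15.

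Some of the other secreted airway genes are given here as examples, and others that were highest on HO replicate 1 are not shown. Bpifb1, a lipid-binding protein of airway mucous cells, had 1009, 901 and 956 in WT, 1395, 473.5 and 1044 in HE, and 1927.5, 90.7 and 1205 in HO. Ltf, the iron binder lactoferrin, had 1262, 1322.5 and 1053 in WT, 1854, 911.5 and 914 in HE, and 2427, 646 and 981 in HO. Cp, the copper carrier ceruloplasmin, had 7292.5, 7114 and 6059 in WT, 9141, 4578 and 6382 in HE, and 11066, 6178 and 8142 in HO at its brightest probe set. HO replicate 1 was the highest and HE replicate 1 the second for all 3 of these genes at these probe sets. Cp had 6 other probe sets, and HO replicate 1 was the highest array for 2 of them; HO minus WT was 0.27 at the brightest and from -0.23 to 0.18 at the others (log2). Bpifa1, the airway surface protein SPLUNC1, split by replicate number instead: it had 1858, 480.3 and 194 in WT, 2104, 179.7 and 288 in HE, and 1895, 62.7 and 197 in HO. Its mean lay under the filter, so it was not tested. Its 3 arrays of replicate number 1 lay above the other 6, as for Cxcl15, with which it correlated at 0.884 over the 9 arrays. Bpifa1 and Bpifb1 were picked after their values were seen.

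Markers of other cells in the tissue followed these arrays in part. The summed signal of 7 goblet or mucous markers, Bpifb1 among them and 3 over the filter, was 3259, 3219 and 3937 in WT, 4214, 2496 and 3052 in HE, and 5625, 1365 and 3063 in HO. That of 7 salivary or tracheal gland markers, Bpifa1 and Ltf among them and only 1 over the filter, was 3736, 2355 and 1707 in WT, 4398, 1896 and 1731 in HE, and 4788, 1198 and 1613 in HO. For both lists HO replicate 1 was the highest array and HO replicate 2 the lowest, as for Pigr (1455490_at). Without Bpifb1 the goblet sum was again highest there (3698) and lowest in HO replicate 2 (1274), with 3 of its 6 markers highest in HO replicate 1. Without Bpifa1 and Ltf the gland sum ran from 434 to 805 with HE replicate 2 the highest, so that its order came from those 2 genes. The 4 ciliated markers on the array were highest in HE replicate 1 (15980), with 14623 in WT replicate 1 and 14193 in HO replicate 1. The 7 club markers were highest in WT replicate 1 (255161), with 251354 in HO replicate 1 and 249535 in HO replicate 2. Of 8 eosinophil or type 2 markers none passed the filter, and their sum was 1444 in HO replicate 1 against 831 to 1047.5 elsewhere. The 8 alveolar macrophage markers on the array, led by Marco, Chil3 and Ear2, ranged from 33999 to 34660.2 in WT, 31984 to 34776 in HE and 32641 to 36095 in HO. Their sum in HO replicate 1 (36095) was little above that in HO replicate 3 (35706). The 7 monocyte or interstitial macrophage markers were highest in HO replicate 1 (25512), against 19416 to 23659.5 on the other arrays. The 6 adipocyte markers were likewise highest in HO replicate 1 (6557) and lowest in HO replicate 2 (3118). No list had a marker at the floor on every array. The part of airway tissue, gland, fat or immune cells in the signals of Reg3g, Retnla and Pigr was not tested.

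**Figure D4:**
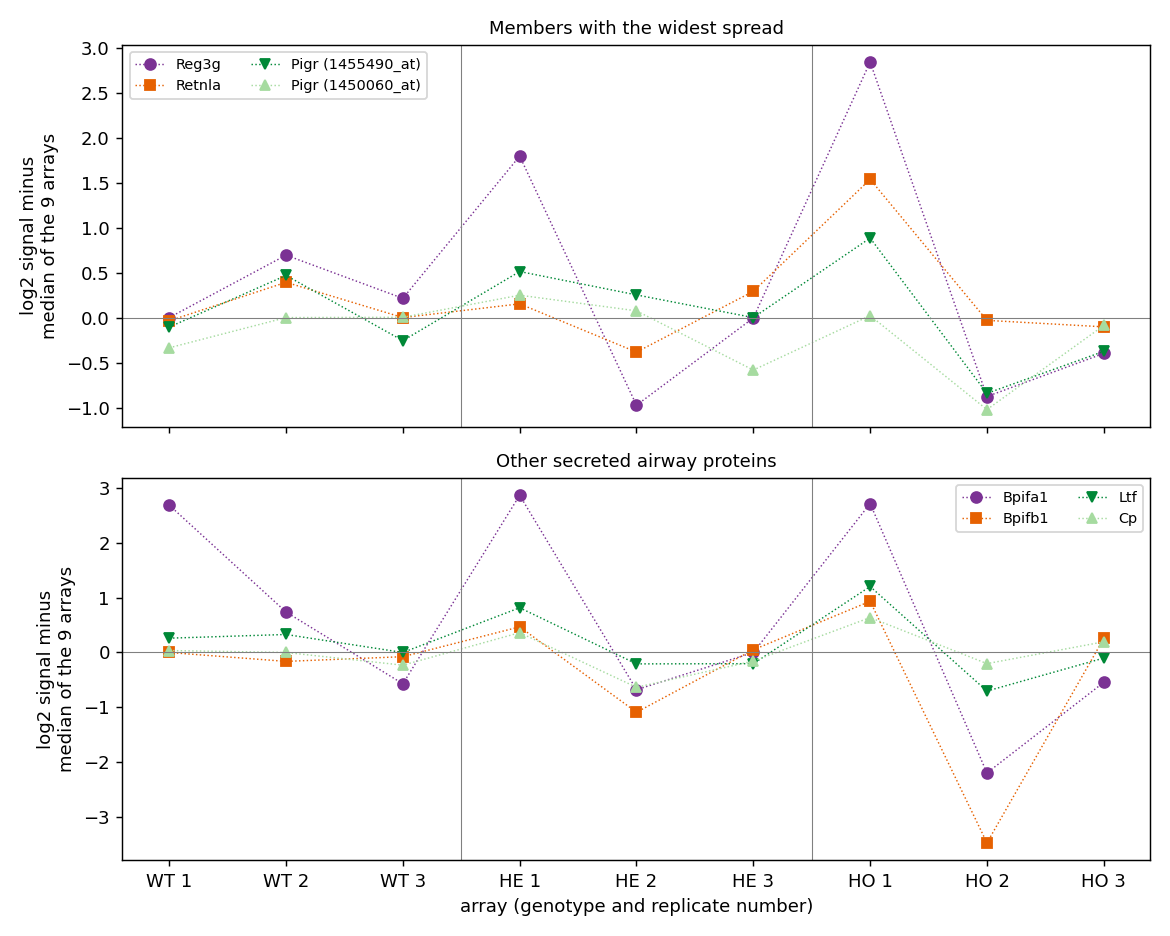
Log2 signal minus each probe set's median over the 9 arrays (y) on each array (x), for the members of widest spread (upper panel) and for other secreted airway proteins (lower panel). HO replicate 1 is the highest point of Reg3g, Retnla, Pigr (1455490_at), Bpifb1, Ltf and Cp, HO replicate 2 is the lowest for both Pigr probe sets, Bpifa1, Bpifb1 and Ltf, and Bpifa1 is high on the 3 arrays of replicate number 1.

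By genotype no member passed the test. In HO against WT 0 of the 11 tested member probe sets passed an adjusted p of 0.05 in limma, where 0% of all probe sets tested did, and 0 of 11 had an unadjusted p under 0.05, against 4.49% of all. In 0 of 11 did the 2 groups not overlap, against 8.88% of all. Of the 11, 6 were higher and 5 lower, with a median log2 difference of 0.05, and over all probe sets 48.8% were higher with a median near 0 (-0.0047). The values ran from -0.25 (Pigr, 1450060_at) to 0.35 (Retnla), with standard errors from 0.15 to 0.37. For 6 of the 9 genes, Lyz1, Lyz2, Cxcl15, Slpi, Wfdc2 and Lcn2, the 95% interval of the fold of HO over WT stayed between 0.63 and 1.37 at every probe set. It was wider for Pigr (0.52 to 1.57 at 1455490_at) and Retnla (0.73 to 2.23). A miss of the threshold does not show that the levels were equal.

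In HE against WT 8 of the 11 were higher and 3 lower, with a median of 0.02 and values from -0.19 (Wfdc2) to 0.22 (Pigr, 1455490_at). None passed, where 0% of all probe sets tested passed, and none had an unadjusted p under 0.05, against 3.11% of all. Groups without overlap were found for 1 of the 11, the Lyz1 probe set above, and for 7.70% of all. In HO against HE 5 were higher and 6 lower, with a median of -0.01 and values from -0.37 (Pigr, 1455490_at) to 0.45 (Retnla), and the counts past both thresholds were again 0 of 11, against 0% adjusted and 2.56% unadjusted of all, and 0 of 11 had groups without overlap, against 6.66% of all. With both transgenic groups set together against WT, 7 were higher and 4 lower, with a median of 0.04, and again 0 of 11 passed either threshold, against 0% and 4.19% of all, or had groups without overlap, against 2.08%. These comparisons share arrays, so their values are not separate evidence. Over the 3 genotypes at once, limma's F gave the members unadjusted p from 0.448 (Wfdc2) to 0.961 (Lyz1, 1436996_x_at).

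**Figure D5:**
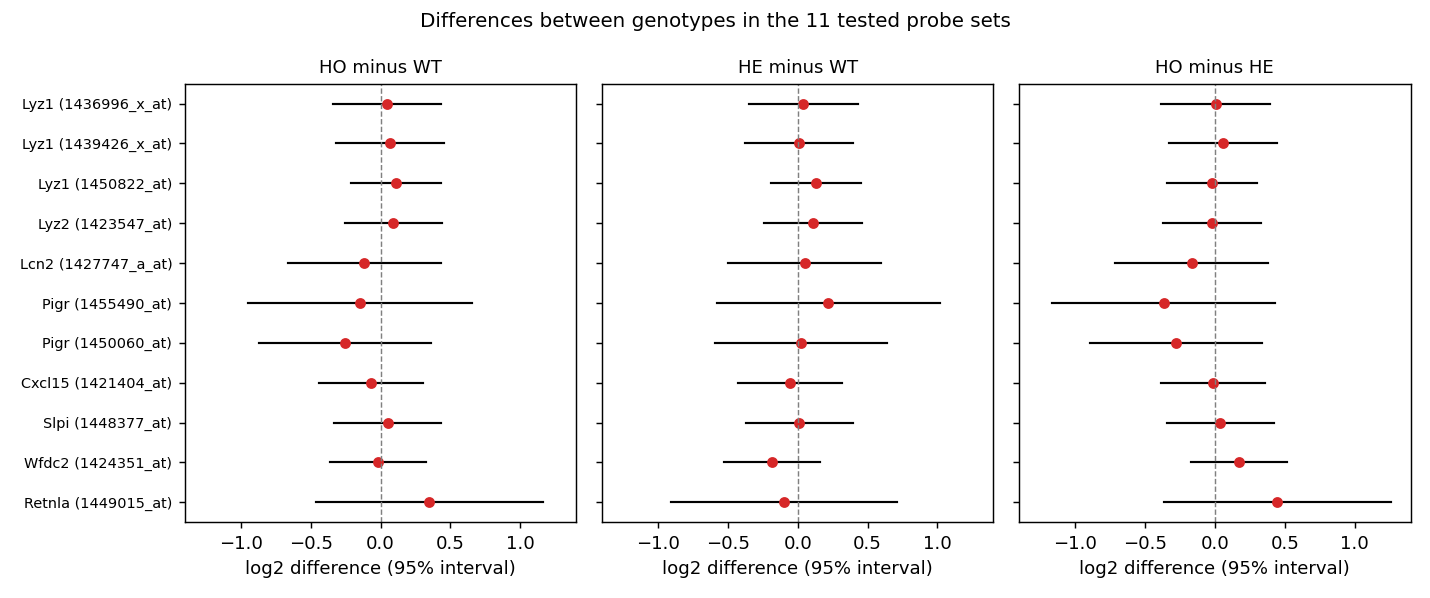
Log2 difference (x, point) with its 95% interval (bar, limma) for the 11 tested member probe sets (y), in HO minus WT, HE minus WT and HO minus HE, with 3 arrays per group. All intervals cover 0, and those of both Pigr probe sets, Retnla and Lcn2 are the widest.

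Across replicate numbers no member passed either. In limma's F over replicate number 1 of the 11 member probe sets, Cxcl15, had an unadjusted p under 0.05, where 12.0% of all probe sets tested did, and 0 passed the adjusted threshold, against 0.0147% (2 probe sets). The unadjusted p of the others ran from 0.0769 to 0.806. Which members lay under 0.05 varied with the arrays and settings: Cxcl15 had 0.132 without WT replicate 1, where Pigr (1455490_at) had 0.0310, and 0.0603 without HE replicate 1, where Lyz2 had 0.0485. The count was 3 without HE replicate 3 and 3 with array weights (Cxcl15 and both bright Lyz1 probe sets), 4 with trended and robust eBayes (these and Lyz2) and 0 with quantile normalization. No adjusted p of a member fell under 0.238 in these alternatives of limma's F. Each replicate number holds 1 array of each genotype and also marks a shared prefix in the sample names, and the sources used here do not say what the numbers stand for.

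The spread over the 9 arrays parted the members into a steady and a variable set. The SD of log2 signal was 0.55 for Retnla, above that of 98.3% of all probe sets tested. It was 0.53 and 0.40 for the 2 Pigr probe sets (above 98.1% and 94.4%) and 0.33 for Lcn2 (above 88.8%). The SD of Lyz1, Lyz2, Cxcl15, Slpi and Wfdc2 ran from 0.16 to 0.20, above 29.0% to 53.6% of probe sets. Reg3g, at 1.25, was below the filter and cannot be ranked with them on equal terms.

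The list of 30 other secreted airway proteins had 29 genes on the array and 20 tested. In HO against WT 9 were higher and 11 lower with a median log2 difference of -0.02, and in HE 8 were higher and 12 lower with a median of -0.03. None had an unadjusted p under 0.05 in limma in either comparison. The genes of lowest p over genotype were Cfb, complement factor B, Cp, the membrane mucin Muc1 and Sftpd, the lung collectin, with unadjusted p from 0.244 to 0.435 in limma. Over replicate number 6 of the 20 had an unadjusted p under 0.05 (12.0% of all probe sets) and 0 passed, led by Cfb, Ltf, Lgals3bp and Cp with adjusted p from 0.335 to 0.352 in limma. Cp was counted at its brightest probe set, and at its others the unadjusted p of limma's F ran from 0.0952 to 0.635. Cfb had 1213, 899 and 801 in WT, 842, 725 and 695.0 in HE, and 983, 862 and 619.8 in HO, so that replicate 3 was the lowest within each genotype.

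Receptors and transcription factors that control such genes were taken from a list of 30, with 26 on the array and 23 tested. In HO against WT 10 were higher and 13 lower with a median of -0.04, and none passed limma's adjusted test. Over genotype 2 had an unadjusted p under 0.05 (3.09% of all probe sets did): Cebpd, a C/EBP factor of the acute phase response, and Nkx2-1, the lung epithelial factor that drives surfactant and secretory genes. Cebpd had 7146, 9616 and 9064 in WT, 10243.5, 11369.8 and 12476 in HE, and 10006, 5266 and 6494 in HO, and stood 0.41 higher in HE and 0.29 lower in HO than in WT. The other Cebpd probe set was lower in both, by 0.27 and 0.42. Nkx2-1 had 507, 619 and 735 in WT, 429, 536 and 547 in HE, and 365, 484.5 and 467 in HO, and its difference of HO from WT was -0.49 ± 0.18 (log2, SE, unadjusted p of 0.0165, adjusted p = 0.992 in limma). The mean log2 signal of Nkx2-1, 9.00, lay only just above the filter at 8.90. Ehf and Il10rb followed with unadjusted p of 0.104 and 0.129.

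Over replicate number 6 of the 23 regulators had an unadjusted p under 0.05, against 12.0% of all probe sets, and 0 passed. The lowest p was that of Tlr2, the receptor for bacterial lipoproteins, with an unadjusted p of 0.000577 and an adjusted p of 0.254 in limma. Its intensities were 1371, 2336 and 1864 in WT, 1097, 2566 and 2084 in HE, and 1400, 2598 and 1589 in HO. Replicate 1 was the lowest and replicate 2 the highest array in each genotype, and the 3 arrays of replicate number 1 lay below the other 6 (3.36% of all probe sets tested), the reverse of Cxcl15 and Bpifa1. Irf1, Tlr3 and Nkx2-1 came next, with adjusted p from 0.315 to 0.343 in limma.

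The genes whose course over the 9 arrays was most like the 3 most variable members were sought among 12465 tested probe sets with 1 symbol. For Reg3g they were the fatty acid binder Fabp3 (Pearson r of 0.95), the tubulin Tuba4a (0.95) and Ltf (0.95), with 13 probe sets over 0.9. For Retnla they were the phospholipase Pla2g6 (0.95), the kinase Nek7 (0.95) and the ATP synthase subunit Atp5a1 (0.94), with 8 over 0.9. For Pigr (1455490_at) they were the Myc binding protein Mycbp (0.94), the small GTPase Rala (0.93) and Pln, phospholamban (0.93), also with 8 over 0.9. Other tested probe sets of these genes often did not follow: the r with the same member was 0.35 for Tuba4a, 0.69 and 0.24 for Nek7, 0.38 for Atp5a1, 0.89, 0.73 and 0.23 for Mycbp (0.23 at its brightest), -0.10 for Rala and 0.62 and 0.69 for Pln. These values describe 9 arrays in which HO replicate 1 is the extreme point for Retnla and Reg3g, and most Reg3g values lie near the dim end.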

How the data were processed

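The deposited table gives 1 linear intensity per probe set and array, and from its values the authors scaled each array to a mean of 1500 after leaving out the lowest and highest 2%; the software that summarised probes was not given in the sources used here. The 64 control probe sets were left out, intensities were raised to a floor (5th percentile, 25.5) and the deposited intensities were then put on the log2 scale. Those whose mean log2 signal lay below the 40th percentile (8.90) were left out, and 13576 were tested.

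Group means over all 9 arrays were fitted in R 4.3.3 with lmFit and eBayes of limma 3.58.1, with 6 residual degrees of freedom, and Benjamini-Hochberg adjustment ran over all probe sets tested. The F over replicate number came from a model with genotype and number. No 2 arrays were copies (smallest median absolute log2 difference 0.183). Arrays have no count depth; their number limits the precision. The functions were tested on simulated data. Of the probe sets, 20380 had 1 symbol, 691 several and 1555 none; all 9 members matched the RefSeq tables. Figures were drawn with matplotlib 3.10.9 in Python 3.11.15.

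The members, gene lists and rules were chosen with earlier results of these data known. Named were every member probe set, Cftr and Sftpc, from each list of secreted, regulator or immunoglobulin genes up to 4 genes of lowest p over genotype and up to 4 over replicate number, up to 3 defining markers of each marker list described, and the 3 genes most like each of the 3 members of widest spread. A gene is described at its brightest probe set, and others are given where they differ by over 0.3 or in sign; genes most like a member are given at the probe set that correlated most. Replicate numbers paired HO with WT by the criterion that every pair's deviations correlate over 0.1 (0.19, 0.14 and 0.28), but not HE with WT (0.30, 0.05 and 0.04). The alternatives were array scaling by quantile normalization or by median centring, the filter dropped or set at the 60th percentile, the floor dropped or set at the 20th percentile, the replicate block, trended and robust eBayes, array weights, only the arrays compared, HO replicate 2 counted as HE, and each array left out in turn.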

Additional observations from a re-analysis of the deposited data

Results flagged for a closer look

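Retnla in HO replicate 1 stood apart among the 6 transgenic arrays. Its gap on the log2 scale to the next array, HE replicate 3 (12322.5 against 5198), was 0.648 of the range of the 6. About 1 in 20 such sets of arrays is marked this way by chance, and 12 member probe sets were looked at. Reg3g and Pigr (1455490_at) were highest on the same array.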

How the results depend on the processing

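No member passed in any alternative of the 4 genotype comparisons (lowest adjusted p 0.746 in HO minus WT and 0.924 in HO minus HE, limma). The sign of a member's difference changed in 20 of 220 values for HO minus WT, 19 of 220 for HE minus WT, 27 of 220 for HO minus HE and 18 of 209 for both transgenic groups. With HO replicate 2 counted as HE, HO minus HE moved by more than the spread between replicates to -0.23 for Lyz1 (1450822_at), 0.29 for Pigr (1450060_at) and 0.27 for Pigr (1455490_at). With the replicate number as a block (the pairing by number), 0 probe sets passed in each genotype comparison, as without it. Over all probe sets the count past the adjusted threshold was 0 in the main fit of each genotype comparison. With no filter it was 2 in HE minus WT, 2 in HO minus HE and 2 in the F over genotype. Leaving out each array in turn gave 0 to 1 in HO minus WT, HE minus WT, both transgenic groups minus WT and the F over genotype, the 1 in each case without WT replicate 1. In the F over replicate number the count of 2 became 1 with quantile normalization, 1 with median centring, 0 with no filter, 1 with the filter at the 60th percentile, 5 with trended and robust eBayes, 0 with HO replicate 2 counted as HE, and 0 to 1 with each array left out. The split of unadjusted calls in HO minus WT was 229 higher and 381 lower. Quantile normalization gave 287 higher and 289 lower, and median centring gave 427 higher and 211 lower. With 3 arrays per group the differences of Lcn2, Pigr and Retnla carry standard errors of 0.25 to 0.37 on the log2 scale, and those of Reg3g 1.06 in the fit with no filter.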
